A study of Mus musculus with 38 samples.

Results

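The 16 autosomal regions described here were set around points given for control elements of imprinted genes. The genes are H19, Kcnq1ot1, Snrpn, Peg3, Mest, Peg10, Nap1l5, Plagl1, Airn, Nnat, Gnas, Grb10, Zrsr1, Meg3, Rasgrf1 and Impact. The Peg3 point missed the Peg3 promoter, as described below. A region is the 30 kb window that reaches 15 kb to either side of a fixed mm9 point, and its peaks are those that overlap the window by 1 bp or more. By this rule 188 of the 384017 deposited peaks belong to the 16 windows. The study mapped 6 histone marks by chromatin immunoprecipitation and sequencing in liver from CD-1 mice of both sexes, aged 8 weeks. CD-1 is an outbred stock, and the labels name no treatment. The 34 histone libraries were deposited as 12 pooled peak lists, 1 for each mark and sex, made from 2 to 4 libraries each. No list has a spread between animals, so no test between animals was possible and counts are given as descriptions.

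Imprinted genes are expressed from the allele of a single parent. Their control regions carry DNA methylation laid down in the egg or in the sperm, and in somatic tissue the methylated allele is typically packed with H3K9me3 while the unmethylated allele can carry H3K4me3. ZFP57, a zinc finger protein, binds the hexamer TGCCGC when it is methylated and recruits the machinery that sets H3K9me3. H19, Meg3 and Rasgrf1 are controlled by paternally methylated regions, and the other 13 regions are maternally methylated. Peak lists from whole liver do not tell the alleles apart, so a region with marks of both kinds may carry them on different alleles or in different cells. For the same reason fewer cells with a mark and less of the mark per cell cannot be told apart.

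Promoter sequences are shown for the genes whose promoter could be tied to the peaks, and for the pair of genes with the most copies of the ZFP57 hexamer. They come from RefSeq (build GRCm38.p6), each running 5′ to 3′ over 250 bases before and 50 bases after a transcription start, with TGCCGC or its reverse complement GCGGCA in capitals. The first 3 have their start, as placed in mm9, inside H3K4me3 peaks of both lists. They belong to Kcnq1ot1 (chr7:143296498-143296797, minus strand), Airn (chr17:12741061-12741360, plus strand) and Peg3 (chr7:6730370-6730669, minus strand). The next pair, Plagl1 (chr10:13090582-13090881, plus strand) and Grb10 (chr11:12027922-12028221, minus strand), was placed inside H3K27me3 islands. Mest (chr6:30737800-30738099, plus strand) and Nap1l5 (chr6:58907077-58907376, minus strand) hold 2 copies of the hexamer each.
Kcnq1ot1: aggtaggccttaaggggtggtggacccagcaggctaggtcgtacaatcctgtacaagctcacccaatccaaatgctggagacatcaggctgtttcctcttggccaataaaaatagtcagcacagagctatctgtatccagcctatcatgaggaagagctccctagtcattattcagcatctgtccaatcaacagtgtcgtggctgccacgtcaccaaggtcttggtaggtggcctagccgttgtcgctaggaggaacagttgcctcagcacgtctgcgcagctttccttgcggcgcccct
Airn: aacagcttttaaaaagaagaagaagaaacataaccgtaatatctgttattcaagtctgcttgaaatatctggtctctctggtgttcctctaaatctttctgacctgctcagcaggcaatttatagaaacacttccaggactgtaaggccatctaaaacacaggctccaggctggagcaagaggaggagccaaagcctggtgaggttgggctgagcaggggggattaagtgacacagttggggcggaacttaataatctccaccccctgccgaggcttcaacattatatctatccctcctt
Peg3: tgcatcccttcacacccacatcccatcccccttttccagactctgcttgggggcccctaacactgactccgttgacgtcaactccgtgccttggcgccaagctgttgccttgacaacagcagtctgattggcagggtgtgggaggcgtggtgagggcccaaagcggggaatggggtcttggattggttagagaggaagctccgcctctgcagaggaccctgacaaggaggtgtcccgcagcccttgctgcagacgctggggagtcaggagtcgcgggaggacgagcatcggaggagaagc
Plagl1: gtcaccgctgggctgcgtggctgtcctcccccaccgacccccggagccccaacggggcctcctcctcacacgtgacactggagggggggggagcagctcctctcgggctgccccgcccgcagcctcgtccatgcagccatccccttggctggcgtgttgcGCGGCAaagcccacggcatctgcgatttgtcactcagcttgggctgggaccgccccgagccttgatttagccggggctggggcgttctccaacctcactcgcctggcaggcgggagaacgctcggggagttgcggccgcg
Grb10: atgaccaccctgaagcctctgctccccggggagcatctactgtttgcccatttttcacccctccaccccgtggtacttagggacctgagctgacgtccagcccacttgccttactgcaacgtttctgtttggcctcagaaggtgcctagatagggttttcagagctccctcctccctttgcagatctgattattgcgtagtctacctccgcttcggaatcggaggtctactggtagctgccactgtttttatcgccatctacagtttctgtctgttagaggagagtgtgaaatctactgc
Mest: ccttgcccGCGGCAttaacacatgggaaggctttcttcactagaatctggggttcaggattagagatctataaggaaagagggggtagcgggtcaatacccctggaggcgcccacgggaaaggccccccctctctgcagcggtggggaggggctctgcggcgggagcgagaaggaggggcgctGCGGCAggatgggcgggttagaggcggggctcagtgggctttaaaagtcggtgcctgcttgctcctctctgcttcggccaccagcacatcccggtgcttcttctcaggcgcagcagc
Nap1l5: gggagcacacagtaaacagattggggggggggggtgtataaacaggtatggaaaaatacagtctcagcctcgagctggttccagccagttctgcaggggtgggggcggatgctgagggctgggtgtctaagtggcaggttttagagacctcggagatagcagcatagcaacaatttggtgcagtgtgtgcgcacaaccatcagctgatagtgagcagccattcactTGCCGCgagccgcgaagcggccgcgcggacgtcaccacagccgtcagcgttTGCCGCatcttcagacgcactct

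The hexamer TGCCGC, searched on both strands, was found in 8 of 23 promoter entries of the members, from 7 of the 13 genes with an entry: Nnat, Mest, Nap1l5, Snrpn, Plagl1, Grb10 and Meg3. Among all 32851 promoters of the table, 11.6% held it. The 23 entries had a median of 13 CpG dinucleotides, against 7 over the whole table. The range was wide, from 1 CpG in an entry of Meg3 to 45 in an entry of Grb10, and the entries shown run from 3 in Airn to 26 in Plagl1. These counts describe the letters in the windows shown and draw on no mark. H19, Peg10 and Impact had no entry.

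The promoters were placed in mm9 by exact matches to the 35-base IgG control reads, which carry their own sequences and mm9 positions. Of the 16 members, 6 were placed this way. Kcnq1ot1 lay 1.45 kb from its point, Plagl1 0.361 kb, Airn 0.822 kb and Grb10 2.98 kb. The placed Snrpn entry was an upstream alternative start 136 kb from the point. The placed Peg3 promoter, at chromosome 7, 6683131 in mm9, lay 46.9 kb from the point of its window, outside the 15 kb. In GRCm38 the same promoter lies at 6730370 to 6730669, next to 6.73 Mb. The Peg3 point thus matches GRCm38 and not mm9. The Peg3 window therefore does not hold the Peg3 promoter, and both places are described. Counts over the 16 windows keep the window of the rule unless stated.

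The tissue label was checked on genes of known cell types. The promoters of Alb, Apob, Fga, Fgb and Apoa1, which encode plasma and lipid transport proteins made by hepatocytes, all carried H3K4me3, H3K27ac and H3K4me1 in both lists and neither H3K27me3 nor H3K9me3. Of the 5 genes of other cells, 2 were placed. Ptprc, a leukocyte gene, and Neurod1, a neuronal gene, had no H3K4me3 in either list, and both had H3K27me3 in the female list. H3K27ac was nevertheless present at Ptprc in both lists. The part that other cells have in the peaks of the 16 windows was not tested.

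Most windows fell into 2 groups when H3K27ac and H3K27me3 were required in both lists. H3K27ac is the acetyl mark of active promoters and enhancers, and H3K27me3 the Polycomb mark of silent genes. H3K27me3 was present in both lists in 7 windows (H19, Mest, Peg10, Plagl1, Gnas, Grb10 and Rasgrf1), and these were the 7 windows with no H3K27ac peak in either list. H3K27ac was present in both lists in 7 other windows (Kcnq1ot1, Snrpn, Peg3, Nnat, Zrsr1, Meg3 and Impact), and none of those 7 had H3K27me3 in both. The Peg3 window among them does not hold the Peg3 promoter. The Nnat and Meg3 windows did hold H3K27me3 in the male list alone, beside their H3K27ac. These islands had 329 reads at Nnat and 1206 at Meg3, at the 46.1 and 10.7 percentile of the list. The remaining pair, Nap1l5 and Airn, had H3K27ac in the male list alone. Among 80513 windows of 30 kb tiled along the autosomes, 31.8% had H3K27me3 in both lists, and 80.7% of those had no H3K27ac in either. Among 34960 windows centred on H3K4me3 peaks, which are closer to promoters, the second share was 19.4%. H3K27ac was in both lists in 19509 tiled windows, and 3856 of these had H3K27me3 in both. For the windows centred on H3K4me3 peaks these counts were 30757 and 7183, so none of 7 is near the general share. No H3K27ac was in either list in 57378 tiled windows, of which 20678 had H3K27me3 in both. The same counts around H3K4me3 peaks were 3149 and 1887. The grouping was noticed in these data and has no test. With a minimum fold of 2 for islands and 10 for peaks, H3K27me3 was left in 3 male and 2 female windows, from 9 and 8, and H3K27ac in 5 and 3, from 9 and 7. H3K4me3 was present in 9 male and 10 female windows, against 16.1% and 17.4% of tiled windows. H3K4me1 was present in 13 and 13 (81.25%), against 37.8% and 38.5% of tiled windows. Around H3K4me3 peaks the H3K4me1 shares were higher than in the 16 windows, 96.2% in males and 94.5% in females.

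**Figure D1:**
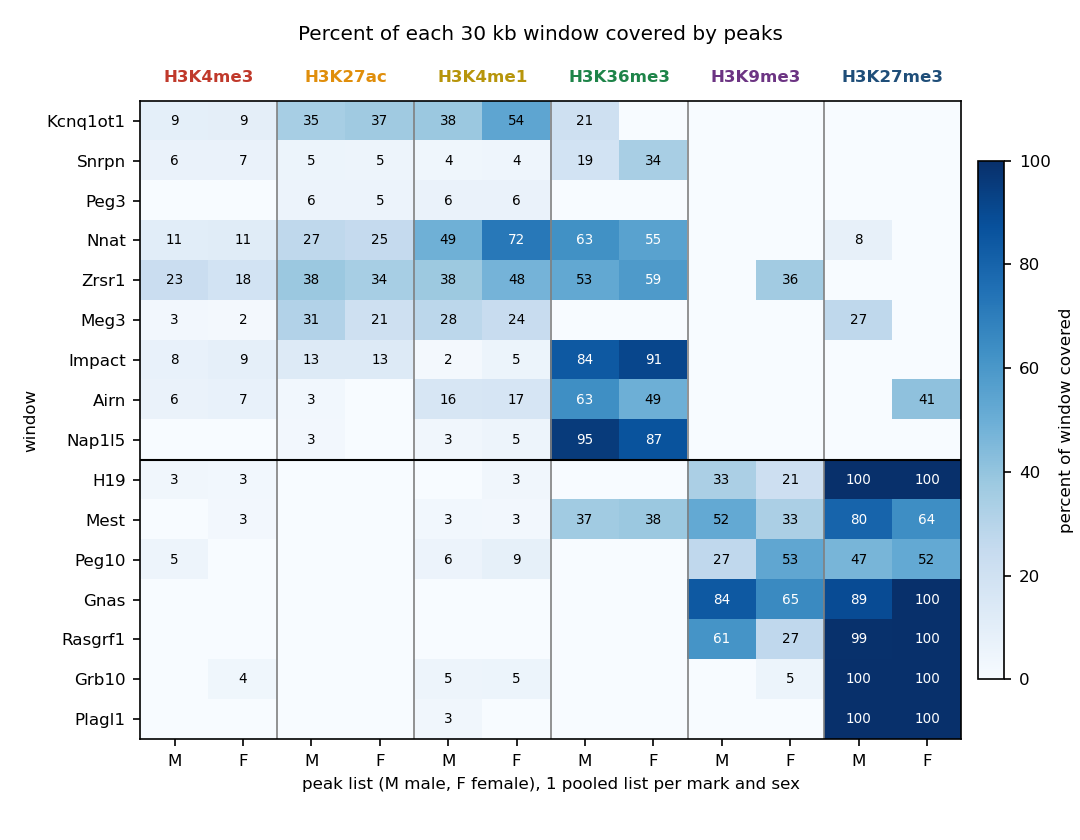
Percent of each 30 kb window (rows) covered by peaks of each mark in the male (M) and female (F) list, where blank cells hold no peak. The 7 windows under the black line have H3K27me3 in both lists and no H3K27ac, and the 9 above it have H3K27ac in at least the male list.

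H3K9me3, the mark of the methylated allele, was found in both lists at H19, Mest, Peg10, Gnas and Rasgrf1, and in the female list alone at Grb10 and Zrsr1. All 5 windows with H3K9me3 in both lists also had H3K27me3 in both. Of the tiled windows, 11.3% had H3K9me3 in both lists, and 61.4% of those had H3K27me3 in both. The count of windows was 5 of 16 in the male list and 7 of 16 in the female list, against 17.8% and 25.6% of tiled windows. H3K9me3 was in neither list at 9 of the 16 windows: Kcnq1ot1, Snrpn, Peg3, Nap1l5, Plagl1, Airn, Nnat, Meg3 and Impact. With its window moved to the placed promoter, Peg3 had an H3K9me3 island in the male list.

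The H3K9me3 islands were shallow, which limits what their absence shows. The 12 islands held between 80 and 297 reads, or 7.23 to 17.4 reads per kb, and the control reads deposited beside them, which are not scaled for depth, ran from 5.78 to 12.6 per kb. At Gnas the islands ranked among the better of their lists, at the 7.75 percentile in males and 7.01 in females, where 100 is the weakest. Fold and score are the authors' own values for each peak and were used to rank peaks within a list. At H19 the male island held 104 reads over 10 kb at 3.35-fold over control, and the female island 91 reads over 6.4 kb at 3.97-fold. Mest differed more, with 174 reads over 10 kb at 2.81-fold in females and 131 reads over 15.6 kb at 1.63-fold in males. The 2 islands of the female list alone sat at its weak end. The Zrsr1 island had 120 reads against 136 control reads and ranked at the 95.1 percentile, and the Grb10 island, which ends at the edge of the window, had 80 reads and ranked at the 98.6 percentile. The control density in the Zrsr1 island was 12.6 reads per kb, the highest of the 12, and the part of the control in this island was not tested.

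Overlap of H3K4me3, which marks promoters, with H3K9me3 is a known feature of imprinted control regions in unsorted tissue, where the marks lie on different alleles. An H3K4me3 peak overlapped an H3K9me3 island in the H19 window in both sexes, and in the Mest and Zrsr1 windows in the female lists. No such window was left in either sex among peaks scoring above the median of their list or past the minimum fold, and 1 was left in females with lists of equal length. Counted by peaks, 2 of 11 male H3K4me3 peaks of the windows overlapped H3K9me3 (18.2%, exact 95% interval 2.28 to 51.8) and 3 of 14 female peaks did (21.4%, 4.66 to 50.8). Over all H3K4me3 peaks the shares were 5.01% in males and 6.56% in females, and both lie inside those intervals, which cover counting error only. The second male peak lay at Impact, at the edge of the window, over an island outside it. The H3K4me3 peaks at H19 and Mest were themselves weak, with 55 male and 34 female tags at H19 and 33 female tags at Mest.

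H19, a maternally expressed noncoding RNA next to the growth factor gene Igf2, lay in the widest H3K27me3 island of the 16 windows. The male island ran from 149730800 to 149889199 on chromosome 7, a width of 158.4 kb with 5750 reads and 1188 control reads, and ranked 22 of 20048 male islands. In the female list it ran from 149726800 to 149872399, with 6649 reads and 1101 control reads, and ranked 64 of 19506. Both reached past the 2 placed Igf2 promoters at 81.2 and 86.7 kb from the H19 point. Within this island the H19 point carried a small H3K4me3 peak (male from 149765919 to 149766919) and the H3K9me3 island around it. No H3K27ac, and no H3K36me3, the mark of transcribed gene bodies, was found in the H19 window in either list.

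H3K4me1 peaks called female lay inside the same island, outside the 15 kb window. H3K4me1 marks enhancers and promoter flanks. For female peaks at 28.5, 41.6 and 48.9 kb from the H19 point, the authors' deposited table lists log2 ratios of male over female of -1.61, -2.58 and -1.79, and all 3 were called female. They held 91, 169 and 414 tags. The male list had a peak of 37 tags at 1 of the 3 sites, for which the authors' deposited table lists -1.75 and a female call. The H3K27me3 island over them was not called, and its log2 in the authors' deposited table was -0.14 for males and -0.20 for females. The 4 other female H3K4me1 peaks of the island, at 0.002, 78.2, 80.3 and 98.2 kb, had -0.27, 0.14, -0.11 and -0.37 in the authors' deposited table and no call. Of all H3K4me1 peaks 6.82% were called in the authors' deposited table, and these sites were chosen after their values were seen.

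**Figure D2:**
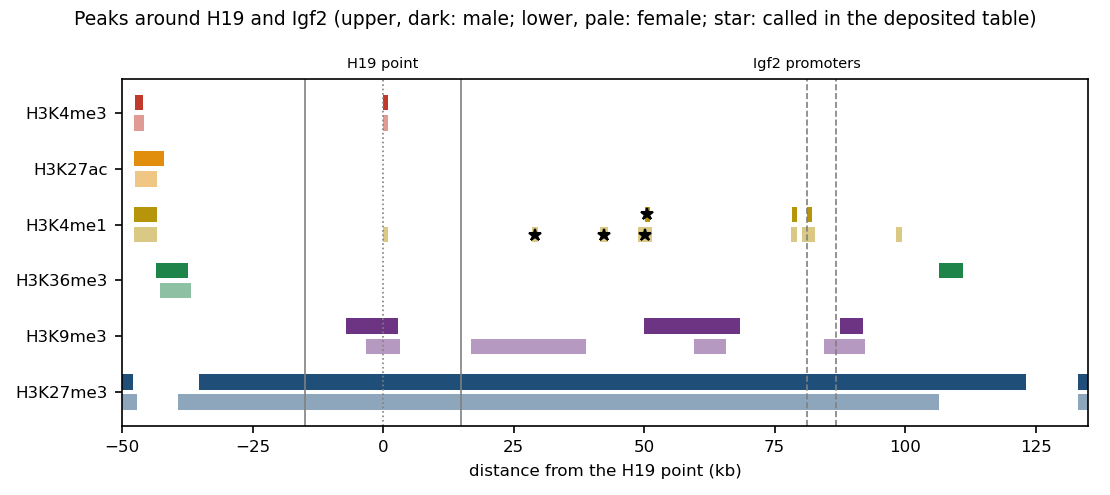
Peaks of the 6 marks along the H19 and Igf2 region, by distance from the H19 point in kb, with the male list above the female list of each mark, solid lines at the window's edges and dashed lines at the placed Igf2 promoters. The H3K27me3 bar spans both genes in each sex, and the stars mark H3K4me1 peaks called female at 28.5 to 51.4 kb.

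The windows of Gnas, which encodes the stimulatory G protein alpha subunit, and Rasgrf1, a Ras exchange factor, held the repressive marks alone. No promoter of either gene was placed in mm9. The Gnas entries begin between 174284070 and 174329756 on chromosome 2 in GRCm38, further apart than the 30 kb of a window. The window thus cannot hold all Gnas promoters, and their marks are not described. No H3K4me3, H3K27ac, H3K4me1 or H3K36me3 peak was found in these windows in either list. At Gnas, H3K27me3 covered 89.3% of the window in males and 100% in females, and H3K9me3 covered 84% and 65.3%. At Rasgrf1 the H3K9me3 island held 133 reads over 18.4 kb in males and 80 reads over 8 kb in females. The H3K27me3 island there was 36 kb wide with 1112 reads in males and 102.4 kb wide with 3475 reads in females. The authors' deposited table gave nearly the same log2 for both Rasgrf1 islands, -0.15 for the male island and -0.16 for the female. The width of the Rasgrf1 island thus differed between lists by more than its deposited ratio.

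Plagl1, a zinc finger transcription factor gene, and Grb10, a growth inhibiting adaptor of insulin signalling, were covered from end to end by H3K27me3 in both sexes without H3K9me3 at the point. Plagl1 islands held 1964 male and 2029 female reads, and its placed promoter carried H3K27me3 in both lists, with a male H3K4me1 peak of 61 tags. Grb10 had the second best rank among the male islands of the windows, 214 of 20048, with 3284 reads over 88.4 kb, against 2326 reads over 74.8 kb in the female list. The authors' deposited table gave these Grb10 islands a log2 of 0.46 for males and 0.45 for females, towards males but under the threshold for a call. Inside the female island, 2 female H3K4me3 peaks of 17 and 22 tags lay 11.3 to 12.7 kb from the Grb10 point. They ranked at the 98.2 and 98.3 percentile of their list. The other Grb10 entry, with 45 CpG, was not placed in mm9, so its distance from these peaks is not given.

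The windows of Mest, which encodes an alpha/beta hydrolase, and Peg10, a retrotransposon-derived gene, held the end of an H3K27me3 island. At Mest the H3K27me3 island ended 9 kb past the point in males and 4.20 kb past it in females. H3K36me3 began at 4 and 3.6 kb and continued to 15.6 kb in both lists, so the 2 marks overlapped there. The H3K36me3 island there was 11.6 kb wide with 601 reads in males and 12 kb wide with 528 reads in females. At Peg10 H3K27me3 ended 1 kb before the point in males and 0.599 kb past it in females. H3K9me3 lay from 7 to 15.8 kb in males and from -1 to 28.6 kb in females, where it covered the point and overlapped H3K27me3. No H3K27ac or H3K36me3 was found in the Peg10 window in either list. A male H3K4me3 peak of 74 tags lay 0.52 to 1.99 kb past the Peg10 point, without a female partner. The authors' deposited table lists a log2 of 0.70 and a p-value of 0.00983 for this Peg10 peak, which is no call.

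**Figure D3:**
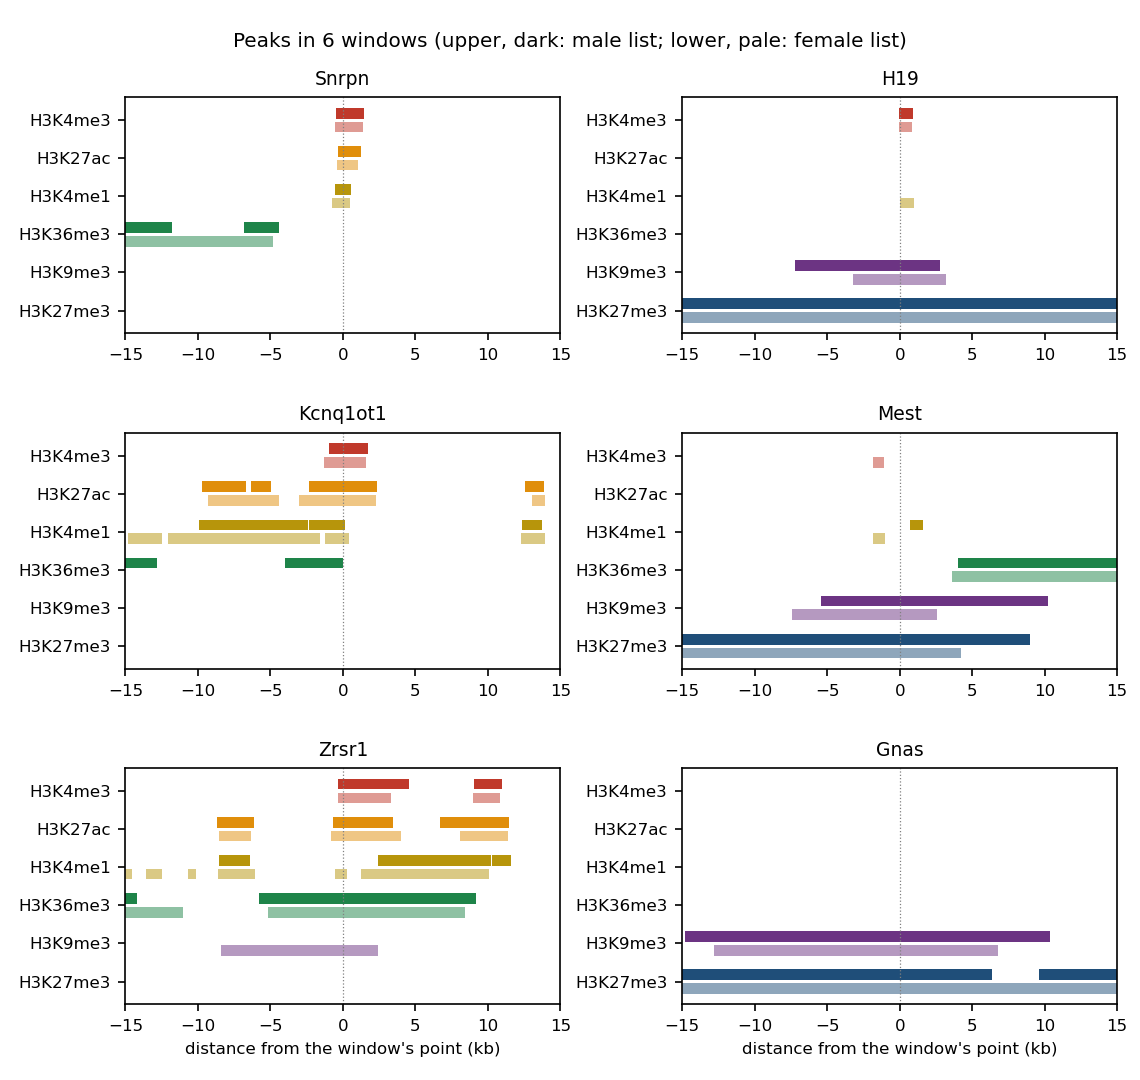
Peaks in 6 of the windows by distance from the point in kb, with the male list (dark) above the female list (pale) of each mark. Snrpn, Kcnq1ot1 and Zrsr1 on the left carry H3K4me3 and H3K27ac at the point, while H19, Mest and Gnas on the right carry H3K9me3 and H3K27me3 over it. H19 also carries H3K4me3 over the point in both lists, and Zrsr1 carries H3K9me3 over it in the female list.

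Among the windows with H3K27ac, Kcnq1ot1 and Snrpn had H3K4me3 and H3K27ac over the point in both lists. Kcnq1ot1 is the paternally expressed antisense RNA that silences neighbouring genes, and its placed start lay in an H3K4me3 peak of 550 male and 736 female tags. H3K27ac covered the same place, with 504 male and 437 female tags, and neither H3K9me3 nor H3K27me3 was found in the window. A female H3K4me1 peak of 1369 tags ran over more than 10 kb beside it, from -12.1 to -1.58 kb, and ranked at the 2.11 percentile of its list. Its male counterpart, from -9.94 to -2.42 kb, held 606 tags. The authors' deposited table lists a log2 of -0.30 for the female and -0.32 for the male peak, without a call. Snrpn, a splicing factor gene at the Prader-Willi locus, had H3K4me3 of 245 male and 296 female tags over the point and H3K27ac of 115 and 100. No Snrpn start was placed near this point. The placed Snrpn start, 136 kb away, had no H3K4me3, H3K27ac or H3K4me1 in either list, and H3K27me3 in the male list. H3K36me3 at Snrpn lay on 1 side of the point, from -37.8 to -4.80 kb in females and in 2 islands between -37.4 and -4.40 kb in males.

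At Nnat and Zrsr1 the marked promoters belong, at least in part, to the host genes in whose introns these genes lie. The Nnat window had H3K4me3 of 733 male and 832 female tags from 5.41 and 5.32 kb past the point. This peak holds the placed promoter of Blcap, 7.10 kb from the point. H3K27ac at that place was the strongest of the 16 windows, with 1168 male and 723 female tags, at the 1.47 and 0.647 percentile of the lists. No H3K4me3 lay within 2 kb of the Nnat point itself. In the Zrsr1 window, the placed Commd1 starts lay at 0.867 and 10.3 kb, each inside an H3K4me3 peak. The first, over the point, held 845 male and 671 female tags, and the second held 404 and 401. H3K36me3 crossed the Zrsr1 point in both lists.

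Airn, the antisense RNA that silences Igf2r, had H3K4me3 of 161 male and 172 female tags at its placed promoter. H3K27ac was found there in the male list with 47 tags and not in the female list. The authors' deposited table gave that Airn peak a log2 of -0.09, so its absence from the female list did not come with a ratio towards males. A female H3K27me3 island of 12.4 kb over the Airn point, with 324 reads against 138 control reads, ranked at the 98.4 percentile. H3K36me3 covered 63.3% of the Airn window in males and 49.3% in females.

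Impact and Nap1l5 lay in the most covered H3K36me3 windows. At Impact, a translation regulator gene, H3K36me3 covered 84% of the window in males and 91.3% in females, and the island from 3.6 and 3 kb past the point ranked at the 1.75 and 1.24 percentile. An H3K4me3 peak at 0.461 and 0.446 kb past the Impact point held 207 male and 195 female tags, under H3K27ac of 439 and 368 tags. Nap1l5, a gene in an intron of Herc3, had H3K36me3 over 95.3% and 86.7% of its window and no H3K4me3, H3K9me3 or H3K27me3 in either list. Its H3K27ac peak, of 69 tags, was in the male list alone and lay beyond 14 kb.

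Meg3, a maternally expressed noncoding RNA, was the 1 paternally methylated region of the 3 with H3K27ac. Small H3K4me3 peaks of 34 male and 38 female tags lay just past its point, with H3K27ac of 103 and 64 tags and H3K4me1 of 98 and 116 tags. A larger H3K27ac peak, of 526 male and 430 female tags, followed at 2.44 and 2.92 kb. H3K36me3 was found in none of the 3 paternally methylated windows, and in 8 of the 13 maternally methylated ones in at least 1 list. Of tiled windows 25.9% had it in males and 24.0% in females, so none of 3 is near the tiled share. Around H3K4me3 peaks the shares were 73.7% and 67.7%, and none of 3 is below those. The Peg3 window, without H3K36me3 here, had it in both lists once moved to the placed promoter. The difference between the groups was not tested. A male H3K27me3 island of 41.2 kb ended 6.80 kb before the Meg3 point, with 1206 reads and 351 control reads, and had no female partner in the list. The authors' deposited table lists a log2 of 0.95 and a p-value of 3.99e-45 for it, just under the log2 of 1 that a call needs.

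Around the placed Peg3 promoter the picture differed from that in the window of the rule. Peg3 is a paternally expressed zinc finger gene, and Usp29 starts beside it in the other direction. H3K4me3 peaks of 108 male and 161 female tags covered the placed start, with male H3K27ac of 500 tags and female H3K27ac peaks of 172 and 154 tags beside it. H3K36me3 lay over the gene body, with 645 reads in the longest male island and 753 reads in the female island. H3K9me3 islands of 107 male and 87 female reads lay inside that stretch, away from the promoter. The window of the rule held 1 H3K27ac and 1 H3K4me1 peak in each list and no others. With the Peg3 window moved to the placed promoter, H3K4me3 was present in 10 male and 11 female windows, in place of 9 and 10.

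**Figure D4:**
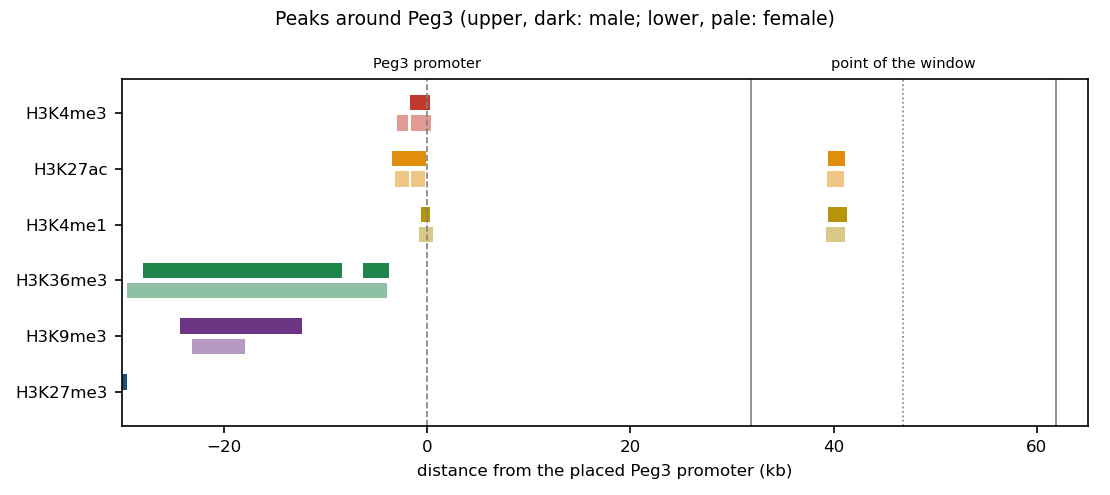
Peaks by distance in kb from the placed Peg3 promoter (dashed line), with the male list above the female list of each mark, a dotted line at the point of the rule and solid lines at the edges of its window. H3K4me3 lies at the promoter, 46.9 kb from the point, and not in the window.

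The H3K4me3 peaks of the 16 windows can be read against all H3K4me3 peaks of the lists. H3K27ac overlapped 9 of 11 male peaks (81.8%, exact 95% interval 48.2 to 97.7) and 9 of 14 female peaks (64.3%, 35.1 to 87.2), against 88.5% and 81.6% over all. H3K36me3 overlapped 6 of 11 (54.5%, 23.4 to 83.3) and 5 of 14 (35.7%, 12.8 to 64.9), against 26.1% and 24.9%. H3K27me3 overlapped 1 of 11 male peaks (9.09%, 0.23 to 41.3) and 5 of 14 female peaks (35.7%, 12.8 to 64.9), against 14.5% and 16.6%. For each of these marks the share over all peaks lies inside the interval. The intervals cover counting error only, and some peaks share a window. The male peak on H3K27me3 was at H19, and the female ones were at H19, Mest, Grb10 and Airn. None of the 25 peaks carried both H3K27ac and H3K27me3 of the same sex, and over all H3K4me3 peaks 7.77% and 7.22% did, so a count of 0 is near those shares.

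The imprinted neighbours of the control regions were counted from a list of 24 genes, of which 13 were placed with 15 promoters. H3K4me3 was found at 6 of the 15 promoters in either list, H3K27ac at 8 and H3K27me3 at 7. Over all 14292 placed promoters the shares for H3K4me3 were 46.4% in males and 47.1% in females. Those for H3K27ac were 49.6% and 48.5%, so 8 of 15 is near the general share. Those for H3K27me3 were 26.0% and 27.5%. Igf2, Ndn, Magel2, Dlk1, Slc22a3 and Dio3 had H3K27me3 at a promoter in both lists, and Dio3 had H3K27ac there as well. Blcap, Commd1, Copg2, Usp29 and Ube3a had H3K4me3 and H3K27ac in both lists. Ddc, next to Grb10, had H3K27ac and H3K36me3 without H3K4me3.

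Differences between the sexes were few in the windows. In the authors' deposited table a peak is called when its absolute log2 ratio is at least 1 with a p-value below 0.001. Of the 188 peaks, 2 were called, both H3K4me1 peaks at Nnat and both female. By mark the counts were 0 of 25 for H3K4me3 (3.68% of all peaks of both lists), 0 of 35 for H3K27ac (3.1%), 2 of 70 for H3K4me1 (6.82%), 0 of 28 for H3K36me3 (0.534%), 0 of 12 for H3K9me3 (2.74%) and 0 of 18 for H3K27me3 (0.44%). With so few peaks a mark, counts of this size are near what those shares give. The p-values in the authors' deposited table compare pooled libraries and do not measure spread between animals.

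The called site at Nnat lay before the point, between -9.57 and -5.12 kb. The female peak, from 157375432 to 157379881 on chromosome 2, held 809 tags at 23.8-fold enrichment and ranked at the 0.341 percentile. The male peak at the same site held 86 tags over 1570 bp. For these peaks the authors' deposited table gives log2 ratios of -1.39 and -1.57, with p-values of 2.79e-52 and 1.50e-33. Of the other 12 H3K4me1 peaks in the Nnat window, 10 had a log2 below 0 in the authors' deposited table, down to -0.67, without a call. H3K4me3 and H3K27ac at the Blcap promoter did not follow, with -0.19 and 0.16 for the male peaks in the authors' deposited table.

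**Figure D5:**
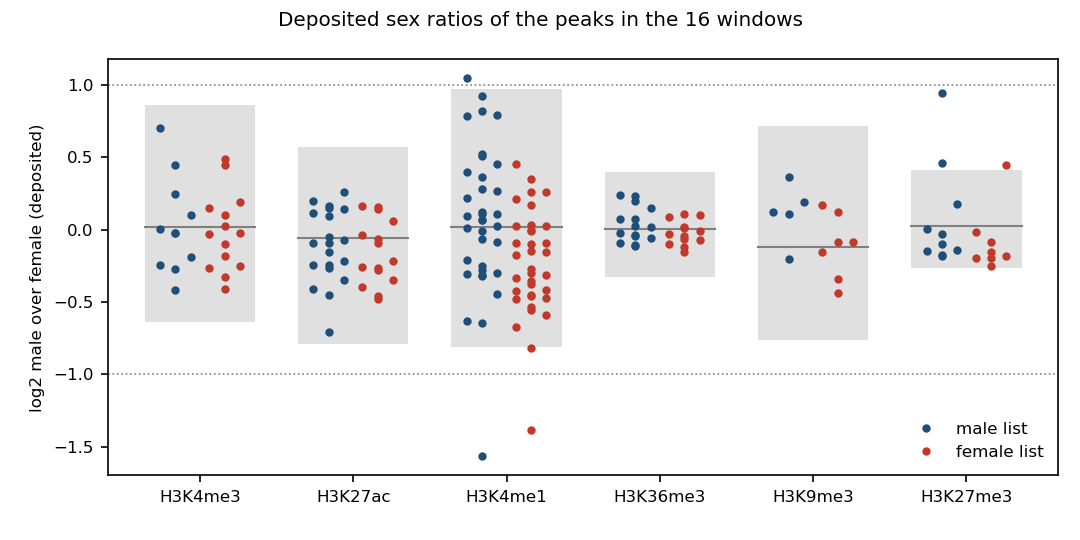
Log2 ratios of male over female signal in the authors' deposited table for the 188 peaks, by mark, with blue points from male and red points from female lists. Grey boxes span the 5th to 95th percentile of all peaks of the mark, grey lines are their medians, and dotted lines mark the log2 of 1 used for calls, which 3 H3K4me1 peaks pass.

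Presence in 1 list alone was more frequent than a call. Of the 188 peaks, 32 (17.0%) had no overlapping peak in the other list, against 21.4% of all peaks. Of those 32, none was called and 28 ranked below the median score of their list. An H3K4me1 peak of 30 male tags at Nap1l5 passed the log2 threshold in the authors' deposited table, at 1.05, but not that for the p-value, at 0.00205. By the log2 of the authors' deposited table, 169 of the 188 peaks (89.9%) lay within 0.5 of 0, against 78% of all peaks. Medians in the authors' deposited table were -0.12 for the 18 H3K27me3 islands, against 0.03 over both lists, and -0.02 for the 25 H3K4me3 peaks, against 0.02. A site in both lists counts once per list and its ratio comes from the same libraries, so these are not independent values.

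Background was measured in 1 IgG library from livers of males aged 7-8 weeks, which the labels record separately. The 16 windows had a median of 127 IgG reads, a density of 0.944 times the autosomal mean. The lowest density was at H19, 0.491 with 66 reads, followed by Gnas with 0.625, and the highest at Zrsr1, 1.32 with 178 reads. H19 and Gnas had H3K9me3 in both lists and Zrsr1 in the female list, so windows with H3K9me3 included both the lowest and the highest IgG density, and the part of this background in the islands was not tested.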

How the data were processed

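The members, gene lists and alternatives were chosen with earlier results of these data known. The submitters' processing notes name Bowtie, SICER 1.1 and build mm9. H3K27me3, H3K9me3 and H3K36me3 lists have SICER-type columns per the file headers. The other lists have MACS-type columns, and the version was not given in the sources used here. Total reads of the histone libraries are likewise not in the lists, so depth is given as tags or reads per peak. Peak files of the libraries of a mark and sex were identical, so each set was used as 1 list. Tag and read counts are as deposited by the authors, pooled over libraries and not normalised. Per the file headers, peaks also carry a fold ratio over control, a p-value or a score made from its log10, and a false discovery rate in percent, which was not used. The log2 ratio between the sexes, its p-value and the call were deposited by the authors, with a normalization not stated in those sources. Some H3K27ac scores were deposited with 3 digits, so ranks there are approximate.

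Alternatives were other half-widths, overlap rules, score and fold limits, list lengths and call thresholds. Overlaps of 1 bp or more were counted in Python 3.11.15 with pandas 2.3.3, after tests on simulated lists. All 16 members are named, with the H3K4me3 peak and H3K9me3 island nearest each point and each called peak. Other gene names come from lists in the design or were chosen after seeing values. RefSeq promoters were placed in mm9 by exact matches of 35-base IgG reads, and a mark was counted at a promoter when a peak lay within 500 bp of the start. Of 31396 autosomal promoters 14292 were placed, and 99.4% of neighbouring pairs kept their spacing within 10 kb of that in GRCm38. The IgG file as deposited holds 11201113 reads, of which 10828699 are autosomal and 37.2% of those repeat a position and strand. Further IgG libraries and sex chromosomes were not used here. Ratios of counts to length give reads per kb, and intervals are exact Clopper-Pearson intervals at 95% (scipy 1.17.1).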

Additional observations from a re-analysis of the deposited data

How the results depend on the processing

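No paired analysis was possible because the files of a mark and sex were identical pooled lists, and for the same reason no replicate could be left out. Of 109 recomputed values, 84 stayed within 1.5 times the reported value. Of those 84, 15 came from moving the Peg3 window alone. Keeping the peaks that score above the median of each list left H3K4me3 in 5 male and 5 female windows, H3K4me1 in 8 male and H3K9me3 in 3 male windows, and no window with H3K4me3 on H3K9me3 in either sex (0 and 0). Requiring a fold of 2 for islands or 10 for peaks left H3K4me3 in 5 male and 6 female windows, H3K27ac in 5 and 3, H3K4me1 in 4 and 7, H3K9me3 in 3 and 4, and H3K27me3 in 3 and 2, with 0 and 0 windows of H3K4me3 on H3K9me3. With the centre of the island required in the window, H3K27me3 was counted in 2 male and 3 female windows. The windows with overlapping H3K4me3 and H3K9me3 numbered 2 in males at a half-width of 30 kb, where Impact was added to H19, and 1 in females with lists of equal length. Calls in the authors' deposited table numbered 0 at a half-width of 5 kb, 7 at 30 kb and 7 with the lower ratio threshold of 1.5-fold. IgG density in the windows stayed near the reported value in its 3 alternatives. Centring the Peg3 window on the placed promoter, an alternative chosen after seeing the data, moved no count by over 1.5 times. The causes were not tested. Peaks under H3K4me3 and H3K9me3 at H19 and Mest hold few reads, so depth limits what an absent peak shows.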

Other observations

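Peaks called for a sex difference lay just outside some of the windows, between 15 and 30 kb from the point, and were seen when the windows were widened. For 2 female H3K4me1 peaks before the Meg3 point, with 55 and 134 tags, the authors' deposited table gives log2 ratios of -1.08 and -1.02 and a female call. A male H3K4me1 peak of 58 tags before the Snrpn point, from -25.4 to -24.5 kb, was also called male, with 1.54 as its log2 in the authors' deposited table. At Impact a male H3K9me3 island of 98 reads, from -22.4 to -16.0 kb, was called male, with 1.1 as its log2 in the authors' deposited table. It had 141 control reads, a fold of 1.43 and a rank at the 97.1 percentile, the weak end of its list. It overlaps the H3K4me3 peak at the edge of the Impact window. The Mirg promoter, placed 207 kb from the Meg3 point, carried H3K9me3 in both lists and none of the other marks.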
